A study of Mus musculus with 6 samples.

Results

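STRAP, a WD-repeat protein that takes part in RNA-protein complexes, was crosslinked to RNA with UV light and pulled down by eCLIP, and the peaks in the transcripts of 38 genes for translation factors and mRNA-binding proteins are described here. The 38 members were chosen by name, with earlier results of these data known: translation initiation and elongation factors, poly(A)-binding proteins, ribosome-associated proteins, and the Igf2bp and Ybx genes. A deposited peak belonged to a member when its summit lay inside the span of that gene in the Gencode M21 annotation of GRCm38. By this rule, 143 of the 10748 deposited peaks fell in members, and the 38 members are among 55450 annotated genes. The samples were wild type C57BL/6 mouse embryos at prenatal day 9.5, several to a pool (the study's text gives a slightly earlier stage than the labels), and wild type embryoid bodies (EBs) that were 9 days old. EBs are aggregates of differentiating embryonic stem cells, grown here without LIF and then in N2B27 medium with bFGF. Each tissue has 2 eCLIP libraries made with an antibody to STRAP and 1 input library made without the pull-down.

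Peaks were called in each library on its own, so a peak's fold compares it with the same library and not with the input. The eCLIP libraries held 136935 to 228422 tags (reads after removal of duplicates), and the inputs held 6289516 in embryos and 6825190 in EBs. The lowest deposited peak had 3 or 4 tags in an eCLIP library and 10 tags in an input. The lists hold only peaks, so a gene without a peak may still have tags. They are also far shorter than the peak sets that the study's text describes, so an absence here is an absence from these lists. Of 5 primitive erythroid genes, 4 and 3 had peaks in the embryo eCLIP libraries and 0 in those of EBs, while 3 of 4 pluripotency genes had peaks in each EB eCLIP library and 0 in embryos. Against this, the EB input had a peak of 26 tags in the erythroid gene Hba-x. Of 5 neural genes, 2 and 1 had peaks in embryo eCLIP and 2 and 1 in EB eCLIP, and Map1b had 227 tags in embryo eCLIP-1 and no peak in embryo eCLIP-2. The 4 visceral endoderm markers had none in any library. The samples are bulk tissue, so fewer cells of a type and less RNA per cell cannot be told apart, and the lists hold no RNA level that would separate more transcript from more binding.

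Translation starts when eIF4F, made of the cap-binding protein Eif4e, the scaffold Eif4g1 and the helicase Eif4a1, opens the mRNA for a small ribosomal subunit that carries eIF3 and the initiator tRNA bound to eIF2. Elongation then needs eEF1A, which brings in aminoacyl-tRNAs, and eEF2, which moves the ribosome along. Poly(A)-binding, Igf2bp and Y-box proteins coat mRNAs and govern how long they last and how often they are read. Many of these proteins are made from abundant mRNAs, and PABPC1 and YBX1 are known to bind their own mRNAs in human cells.

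The sequences below are coding stretches that eCLIP peaks of 2 to 4 libraries overlapped, shown to give the sequence at the strongest coding summit. The windows of Eef1a1 and Eif3a hold summits of more than 1 library, and each of the others holds the summit of 1 library. Each is sense-strand GRCm38 sequence from RefSeq, written 5' to 3' within 60 nt of the strongest coding summit of that exon and ending at the edge of the coding exon. Capitals mark the purine hexamers GAAGAA or GAAGAG or GAGGAA or GAGGAG.
Eef1a1 exon 2 (chr9:78480511-78480629, minus strand): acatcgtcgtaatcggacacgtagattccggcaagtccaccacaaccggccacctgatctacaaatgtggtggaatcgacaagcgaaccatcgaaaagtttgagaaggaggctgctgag
Eef2 exon 4 (chr10:81178681-81178785, plus strand): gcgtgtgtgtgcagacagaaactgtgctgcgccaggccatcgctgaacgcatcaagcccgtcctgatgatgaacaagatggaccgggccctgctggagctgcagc
Eif2s2 exon 6 (chr2:154877681-154877801, minus strand): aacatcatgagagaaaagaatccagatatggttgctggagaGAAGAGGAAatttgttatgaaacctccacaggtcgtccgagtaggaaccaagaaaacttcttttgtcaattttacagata
Eif5b exon 4 (chr1:38019348-38019468, plus strand): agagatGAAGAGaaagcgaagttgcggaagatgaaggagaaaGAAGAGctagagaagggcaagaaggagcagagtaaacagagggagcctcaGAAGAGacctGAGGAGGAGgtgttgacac
Eif3a exon 12 (chr19:60772809-60772929, minus strand): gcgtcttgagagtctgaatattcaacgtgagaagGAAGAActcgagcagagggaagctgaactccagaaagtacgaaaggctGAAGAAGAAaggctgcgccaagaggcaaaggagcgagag
Rack1 exon 6 (chr11:48804200-48804296, plus strand): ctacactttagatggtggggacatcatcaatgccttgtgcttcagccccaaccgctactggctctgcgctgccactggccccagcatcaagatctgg
Ybx1 exon 7 (chr4:119279138-119279199, minus strand): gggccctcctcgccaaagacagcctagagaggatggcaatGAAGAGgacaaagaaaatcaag
The windows of Eef1a1, Eef2 and Rack1 held 0 of these hexamers, that of Ybx1 held 1, that of Eif2s2 held 2 that overlap, that of Eif3a held 3 and that of Eif5b held 5. For both ends of the Pabpc1 mRNA and for the Ybx1 3' UTR, which has no input peak, 30 nt near the summit are shown. The Ybx1 5' UTR, which has more tags but lies on input peaks, is not shown. For Pabpc1 they are the most A-rich 30 nt within 100 nt of the strongest summit, with runs of at least 3 A in capitals, and for Ybx1 the most pyrimidine-rich, with runs of at least 4 C or T in capitals.
Pabpc1 5' UTR (chr15:36608761-36608790, minus strand): AAAAtaacccggtgaagcagccgagaccga
Pabpc1 3' UTR (chr15:36595865-36595894, minus strand): AAAAtacAAAAAAAtagtAAAAtatAAAAA
Ybx1 3' UTR (chr4:119278265-119278294, minus strand): CCTTaagtgcttgCTTTTTgCCCTCTgacc
The Pabpc1 3' UTR stretch held 23 A in 30 nt, the Pabpc1 5' UTR stretch 12, and the Ybx1 3' UTR stretch 22 pyrimidines. Each count is the highest near its summit because the stretch was picked for it, and it was not compared with other sequence.

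In embryos, 10 members had a peak in both eCLIP libraries and none in the input, among them Eef1a1, Eef2, Eif2s2, Eif3a and Rack1. These are 10 of the 25 members with a peak in any embryo library (40.0%), whereas 436 of all 2746 genes with a peak there (15.9%) met the same rule. Of all 38 members they are 26.3%, against 1.59% of protein-coding genes (350 of 21951). In EBs, 13 of the 26 members with a peak there met the rule, whereas 527 of 2840 genes did so (18.6%). They are 34.2% of all members, against 1.95% of protein-coding genes (427 of 21951). Eef1a1, Eef1b2, Eef2, Eif2s2, Eif5b and Rack1 met it in both tissues. Embryos alone added Eif3a, Eif4a1, Eif4h and Igf2bp1, and EBs alone added Eif3b, Eif3c, Eif3e, Eif4a2, Eif4g1, Pabpc4 and Ybx3. With 2 eCLIP libraries and 1 input there is no test over libraries that could pass a threshold, so these are counts. The members were chosen with earlier results of these data known, so the shares are not an independent comparison. The totals of genes with a peak in a tissue also include genes with only an input peak, which cannot meet the rule. Among the members, Eif4a2 was such a gene in embryos. With the peaks limited to scores of 100 or more, 2 members met the rule in embryos (Eef1a1, and Tpt1, whose input peak then dropped out) and 2 in EBs (Eef1a1 and Eif2s2).

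**Figure D1:**
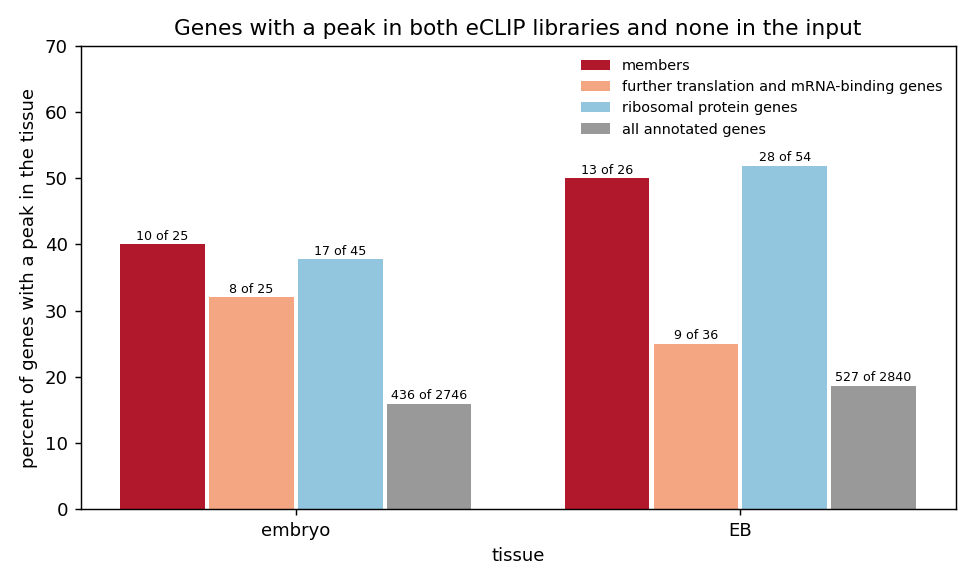
Percent of genes with a peak in the tissue (vertical axis) that had a peak in both eCLIP libraries and none in the input, in embryos and EBs, for the members, further translation and mRNA-binding genes, ribosomal protein genes and all annotated genes. The members stand at 10 of 25 in embryos and 13 of 26 in EBs, and all genes at 15.9% and 18.6%.

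Setting the inputs aside but over the same totals, 15 of 25 members with an embryo peak had peaks in both embryo eCLIP libraries, against 21.8% of all genes. In EBs, 17 of 26 members did so, against 24.4% of all genes. Of the 29 members with a peak in any eCLIP library, 9 had peaks in all 4, whereas 11.5% of the 2797 genes with an eCLIP peak did. Ribosomal protein genes, the most similar transcripts in function, had peaks in both eCLIP libraries and none in the input in 17 of 45 cases in embryos (37.8%) and 28 of 54 in EBs (51.9%), shares close to those of the members. The remaining 9 members, Eef1d, Eif1a, Eif2s1, Eif2s3x, Eif5, Eif3d, Eif4e, Igf2bp2 and Igf2bp3, had no peak in any of the 6 libraries.

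**Figure D2:**
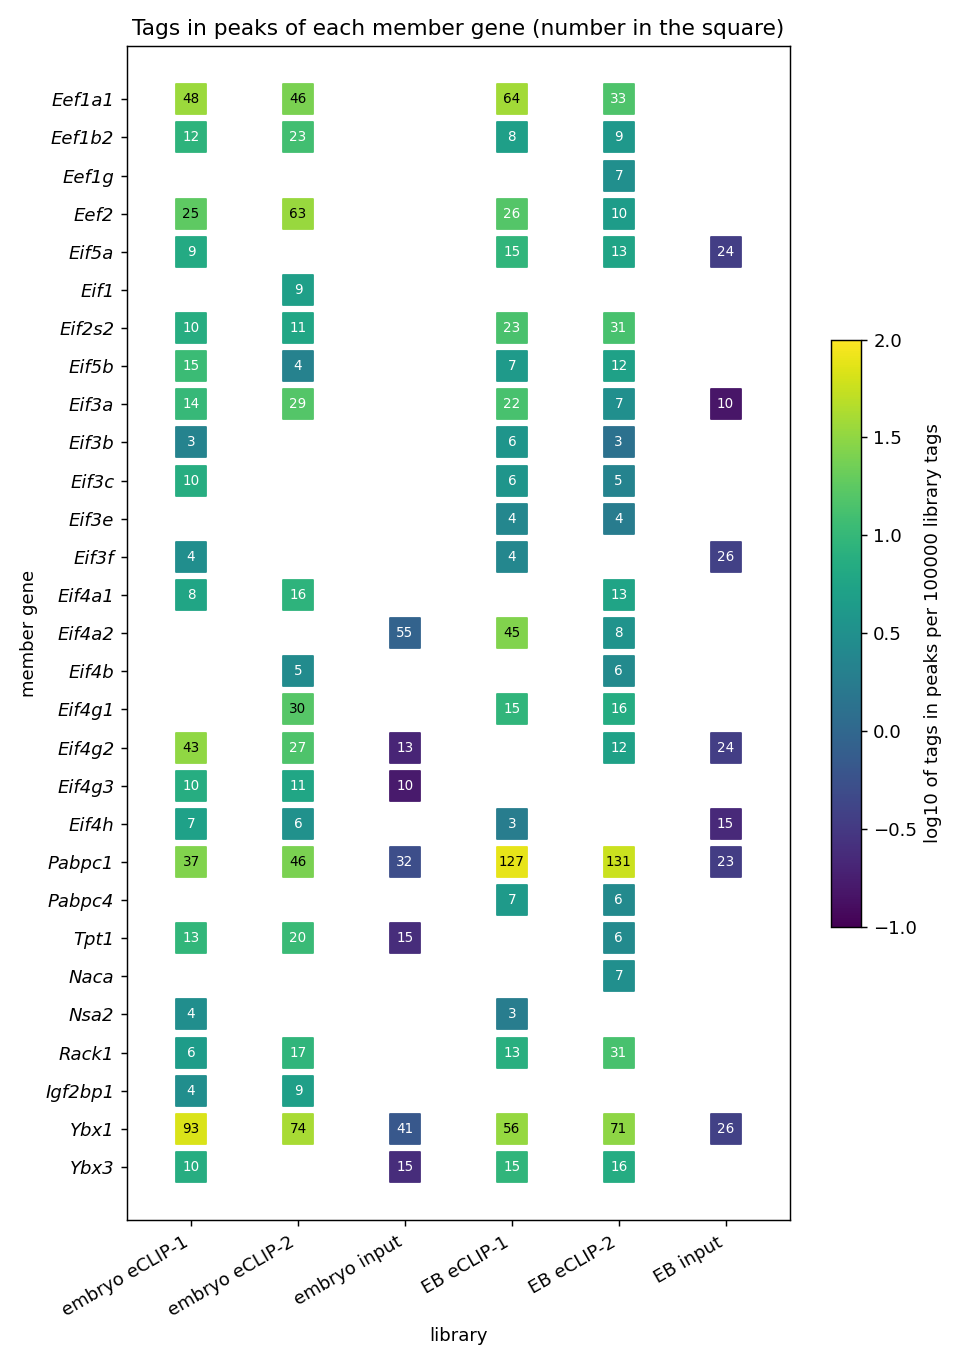
Tags in the peaks of each of the 29 members with a peak (rows, in the order of their roles) in the 6 libraries (columns). The number is the tags counted, the colour is the log10 of tags per 100000 library tags, and an empty place means no deposited peak. Pabpc1, Ybx1 and Eef1a1 are bright in all 4 eCLIP columns, and every input square is darker than the eCLIP squares. The lowest deposited eCLIP peak stands at 1.31 tags per 100000, above the highest input value of 0.874, so the smaller eCLIP libraries cannot show squares as dark as the inputs do.

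Peaks in members held 281 and 241 tags per 100000 library tags in the embryo eCLIP libraries, against 2.88 in the embryo input. In EBs they held 283 and 200.1, against 2.17 in the EB input. Over all peaks the same contrast was also wide, with 15952 and 13505 against 989 in embryos and 12587 and 10278 against 754 in EBs. The lowest deposited peaks stand at 1.31 to 2.19 tags per 100000 in eCLIP libraries and at 0.147 and 0.159 in the inputs. These contrasts therefore do not measure enrichment by the pull-down. The embryo eCLIP mean was 261 ± 28.5 and the EB eCLIP mean 242 ± 58.8 (SD, n = 2 each). The means of the log2 values differed by 0.13, less than the spread between libraries (exact permutation test, two-sided, p = 1.0, where the smallest p that 2 against 2 libraries allow is 0.333). The sign turned when tags were scaled to all tags in peaks (-0.24) or when EB eCLIP-2 was left out (-0.12). These tags are sums over called peaks, whose widths differ between libraries. Ribosomal protein genes held 199 ± 22.3 in embryos and 247 ± 74.1 in EBs (SD, n = 2 each). In the inputs they held 2.43 in embryos and 1.07 in EBs, so a wide contrast is not particular to the members. Pabpc1, Ybx1 and Eef1a1 together supplied 37.2% to 52.7% of the member tags in an eCLIP library.

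Among the elongation factors, the summits of Eef1a1, which delivers aminoacyl-tRNA to the ribosome, gathered in exon 2 of 8, close to the start codon. Eef1a1 held 35.1 and 24.8 tags per 100000 in the embryo eCLIP libraries and 38.7 and 14.4 in those of EBs, and it had no peak in either input. Its main summit lay at nt 238 and 99 of the spliced mRNA in embryos and at nt 206 and 200 in EBs, and the coding sequence starts at nt 121. The EB eCLIP-1 peak of 64 tags was 2516 nt wide, so its tags are not confined to exon 2. EB eCLIP-2 had a further peak of 5 tags in exon 8. All 5 exonic Eef1a1 summits have 7 to 17 other copies in the genome that match at 90% identity or more over at least 100 nt, and the share of its tags that came from them was not tested.

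Eef2, the translocation factor, held 18.3 and 34.0 tags per 100000 in embryos and 15.7 and 4.38 in EBs, with no input peak. Its 5 summits fell in 4 different coding exons, exon 2 and exon 4 in embryo eCLIP-2, exon 7 in embryo eCLIP-1, exon 5 in EB eCLIP-1, and exon 4 once more in EB eCLIP-2. The embryo eCLIP-2 peak with its summit in exon 4 (45 tags) was 2851 nt wide. The EB eCLIP-1 peak (26 tags) ran from position 81178690 to 81180221. The tags of these 2 peaks are therefore not confined to the exon of the summit. Both peaks also overlapped the intronic snoRNA gene Snord37, although neither summit lay in it. Eef1b2, a subunit of the factor that recharges eEF1A with GTP, held 8.76 and 12.4 tags per 100000 in embryos and 4.83 and 3.94 in EBs, with no input peak. In both embryo libraries its main summit lay inside a snoRNA gene at the same base, with 12 and 16 tags, whereas the EB summits lay in exons 1 and 6 and, 16 nt from an exon, in an intron.

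Eef1g, another subunit of that factor, had a single peak of 7 tags, 830 nt inside an intron in EB eCLIP-2. Eif5a, which helps the ribosome through stretches it reads slowly, had 6.57 tags per 100000 in embryo eCLIP-1, no peak in embryo eCLIP-2 and no peak in the embryo input. In EBs it had 9.06 and 5.69, against 0.352 in the EB input, where the peak of 24 tags lay in the same 3' UTR as the main eCLIP summits. Eif5a therefore did not meet the rule in either tissue.

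Of the 7 factors that find the start codon and join the subunits, Eif2s2 and Eif5b had peaks in all 4 eCLIP libraries and no input peak. Eif2s2 encodes the beta subunit of eIF2, which carries the initiator tRNA. It held 7.30 and 5.94 tags per 100000 in embryos and 13.9 and 13.6 in EBs, higher in both EB libraries than in both embryo libraries. A region of 333 nt around exon 6 held 5 and 7 tags in embryos and 14 and 16 in EBs, with summits within 89 nt of each other. The span of Eif2s2 lies within that of the gene a, which encodes agouti, and peaks carry no strand, so each Eif2s2 summit is also inside a. Leaving out summits in more than 1 annotated gene took Eif2s2 out of the count in both tissues, Eef1b2 out in embryos and Eif4a2 out in EBs, and brought Eif4g2 in for embryos, which left 9 members in embryos and 11 in EBs.

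Eif5b, the GTPase that joins the ribosomal subunits, held 10.95 and 2.16 tags per 100000 in embryos and 4.23 and 5.25 in EBs. Its summits gathered in the long exon 4 of 24, with 11 tags in embryo eCLIP-1, 7 in EB eCLIP-1, and peaks of 8 and 4 tags in EB eCLIP-2, whereas the summit of embryo eCLIP-2 lay in exon 6 with 4 tags. Eif1, which keeps the scanning ribosome from starting at wrong codons, had 1 peak of 9 tags in exon 1 in embryo eCLIP-2. The other 4 factors of this role, Eif1a, Eif2s1, Eif2s3x and Eif5, had none.

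Of 6 eIF3 subunits, which form the scaffold on the small ribosomal subunit, Eif3a had the most tags. Eif3a held 10.2 and 15.7 tags per 100000 in embryos, without an embryo input peak, and 13.3 and 3.06 in EBs, against 0.147 in the EB input. Exon 12 of 22 held a summit in embryo eCLIP-1 (14 tags), EB eCLIP-1 (12 tags) and EB eCLIP-2 (7 tags), while the EB input peak of 10 tags lay in exon 16. The 2 peaks of embryo eCLIP-2 lay in exons 11 and 19. Each exonic summit of Eif3a is in coding sequence and has 0 close copies in the genome.

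The other eIF3 subunits had few tags. Eif3b and Eif3c each had peaks in embryo eCLIP-1 and both EB libraries, with 3 to 10 tags a library, and no input peak. No peaks of theirs overlapped between libraries. Eif3e had 4 tags in each EB library and no other peak. Eif3f had a peak of 4 tags in exon 1 in embryo eCLIP-1 and in EB eCLIP-1, and the EB input had a peak of 26 tags in the same exon.

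In the eIF4 group, which recruits the ribosome to the cap, 7 of 8 members had an eCLIP peak and the cap-binding protein gene Eif4e had none. Eif4a1, the main eIF4A helicase, held 5.84 and 8.64 tags per 100000 in embryos and, in EBs, none in eCLIP-1 and 5.69 in eCLIP-2. The 3 summits lay in the 3' UTR within 83 nt of each other, at nt 1425, 1419 and 1502 of 1774, and no input peak lay there. The embryo peaks also reached a snoRNA gene next to it, and all 3 summits have close copies elsewhere in the genome.

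Eif4a2, the second eIF4A helicase, had input but no eCLIP peaks in embryos, and the reverse in EBs. Embryo eCLIP had no Eif4a2 peak, whereas the embryo input had 2 peaks with 30 and 25 tags (0.874 tags per 100000). The lowest deposited embryo eCLIP peaks stand at 2.19 and 2.16 tags per 100000. An eCLIP signal equal to the embryo input would therefore give no peak, and the absence cannot show less signal than in the input. EB eCLIP had 27.2 and 3.50 tags per 100000, from 45 and 8 tags, and the EB input had no peak. All of these summits were intronic and every one of these peaks overlapped a snoRNA gene of the Eif4a2 introns, Snora81 among them.

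Eif4g1, the eIF4F scaffold, had no peak in embryo eCLIP-1, 16.2 tags per 100000 in embryo eCLIP-2, and 9.06 and 7.005 in EBs, with no input peak. In embryo eCLIP-2, 22 tags lay in a peak that also overlapped the snoRNA gene Snord66, although its summit lay outside it. A region of 395 nt in its 3' UTR held 8 tags in embryo eCLIP-2 and 8 in EB eCLIP-2, with summits 11 nt apart. Eif4g2, a relative of the scaffold that does not bind the cap-binding protein, held 31.4 and 14.6 tags per 100000 in embryos, against 0.207 in the embryo input, whose summit lay in an intronic snoRNA gene. In EBs it had none in eCLIP-1 and 5.25 in eCLIP-2, against 0.352 in the EB input. The Eif4g2 region around exons 18 to 20 held 28 and 17 tags in embryos and 12 in EB eCLIP-2 with no input peak, while its exon 1 held 6 and 10 tags in embryos and 24 in the EB input.

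Eif4g3, another scaffold, had peaks in embryos only, with 7.30 and 5.94 tags per 100000 in eCLIP and 0.159 in the input, and the input peak lay deep in an intron, 738 nt from an exon. Eif4h, a helicase cofactor, had 5.11 and 3.24 in embryos, both in exon 6, and 1.81 in EB eCLIP-1, in an intron, and the EB input had a peak of 15 tags that overlaps the exon 6 region. Eif4b, another cofactor, had 5 tags in embryo eCLIP-2 and 6 in EB eCLIP-2 at different places, and no input peak.

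Pabpc1, the cytoplasmic poly(A)-binding protein, had the most tags of all members in both EB eCLIP libraries, whereas Ybx1 had the most in embryo eCLIP. Pabpc1 held 27.0 and 24.8 tags per 100000 in embryos, against 0.509 in the embryo input, and 76.7 and 57.4 in EBs, against 0.337 in the EB input. The peaks fell at both ends of the mRNA, which is 2817 nt long with its coding sequence from nt 468 to 2375. In the 5' UTR, the 4 eCLIP summits lay within 14 nt of each other, at nt 228 to 242, with 20 and 31 tags in embryos and 53 and 55 in EBs. Both inputs had a peak in the same exon, with 32 tags in embryos and 23 in EBs.

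In the Pabpc1 3' UTR, the eCLIP libraries held 17 and 15 tags in embryos and 55 and 58 in EBs, at nt 2492 to 2587, and neither input had a peak. On the scale of library size these were 12.4 and 8.10 in embryos and 33.2 and 25.4 in EBs, so the EB libraries lay above the embryo libraries. Sequence close to the A-rich stretch printed above has 4 to 8 other copies in the genome, whereas the 5' UTR summits of the eCLIP libraries have 0. Another region in and next to exon 2 held 19 and 18 tags in EBs only. Pabpc4, a related poly(A)-binding protein, had 4.23 and 2.63 tags per 100000 in EBs, with its shared summits in exon 1, and no peak in embryos or inputs.

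Rack1, a scaffold on the small ribosomal subunit, had peaks in all 4 eCLIP libraries and no input peak. It held 4.38 and 9.18 tags per 100000 in embryos and 7.85 and 13.6 in EBs. Exon 1 held 13 tags in embryo eCLIP-2 and, in EBs, 13 and 15, with summits 36 nt apart at most, at nt 66 to 102 just before the coding sequence. The EB eCLIP-1 peak there also overlapped the snoRNA gene Gm25296, although its summit lay outside it. Exon 6 held 6 tags in embryo eCLIP-1 and 16 in EB eCLIP-2, and all exonic summits of Rack1 have 0 close copies elsewhere.

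Tpt1, a growth-related protein whose synthesis responds to cell growth, held 9.49 and 10.8 tags per 100000 in embryos, against 0.238 in the embryo input. All 3 peaks lay in exon 1, with the eCLIP summits 11 nt apart. EB eCLIP-2 had 2 intronic peaks of 3 tags, the second inside Snora31, and EB eCLIP-1 and the EB input had none. Nsa2, a ribosome assembly factor, had 4 tags in embryo eCLIP-1 and 3 in EB eCLIP-1, and Naca, which binds nascent chains, had 3 and 4 tags in EB eCLIP-2 only.

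Ybx1, a Y-box protein that packages mRNA, held 67.9 and 40.0 tags per 100000 in embryos, against 0.652 in the embryo input, and 33.8 and 31.1 in EBs, against 0.381 in the EB input. Like Pabpc1 it was peaked at both ends. The 5' UTR summits lay at nt 185 to 209, before the coding sequence at nt 242, with 46 and 34 tags in embryos and 29 and 20 in EBs, and both inputs had a peak in the same exon with 41 and 26 tags. The 3' UTR summits lay at nt 1248 to 1329 with 26 and 30 tags in embryos and 27 and 28 in EBs, and no input peak lay there. Exon 7 added 21 and 10 tags in embryos and 19 in EB eCLIP-2. All 11 exonic eCLIP summits of Ybx1 have 3 to 8 close copies in the genome.

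Ybx3, a second Y-box gene, held 7.30 tags per 100000 in embryo eCLIP-1 and none in embryo eCLIP-2, against 0.238 in the embryo input, and 9.06 and 7.005 in EBs with no EB input peak. Its 3' UTR region was free of input peaks, with 6 tags in embryo eCLIP-1 and, in EBs, 10 and 16, whereas exon 1 held 4 tags in embryo eCLIP-1, 5 in EB eCLIP-1 and the embryo input peak of 15 tags. Igf2bp1, an mRNA-binding protein of the embryo, had 2.92 and 4.86 tags per 100000 in embryos, in exon 1, and no peak in EBs or inputs. Igf2bp2 and Igf2bp3 had none.

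**Figure D3:**
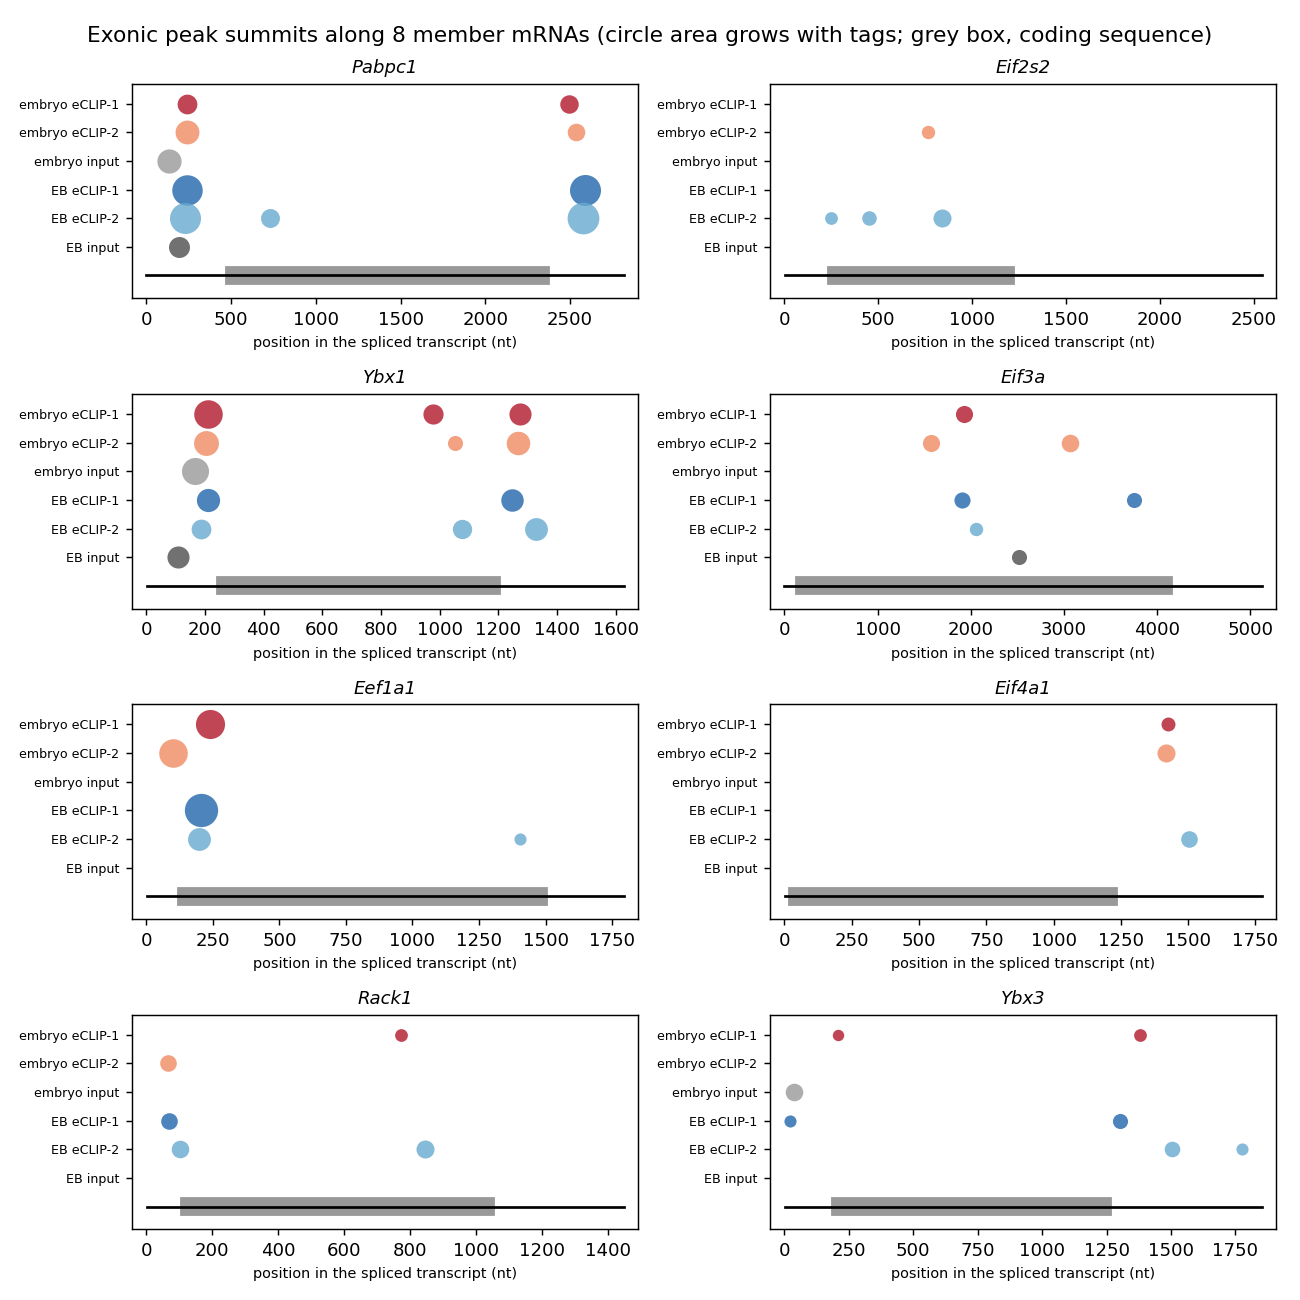
Exonic peak summits along 8 member mRNAs, in nt from the start of the spliced transcript (horizontal axis), in the 6 libraries (rows). Circle area grows with the tags in the peak, and the grey box is the coding sequence. In Pabpc1 and Ybx1 the input summits lie in the 5' UTR only, while the 3' UTR summits are from the 4 eCLIP libraries.

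Merging overlapping eCLIP peaks gave 68 member regions, of which 31 in 20 genes were held by at least 2 eCLIP libraries (45.6%), whereas 29.6% of all 3856 merged regions were. Of the 31, 22 in 15 genes were free of an input peak (71.0%), close to the 73.1% of all 1143 such regions. The 22 had their strongest summit in a coding exon in 10, in a 3' UTR in 5, in a 5' UTR in 4 and in an intron in 3. The 9 regions on an input peak had it in a 5' UTR in 5, in a coding exon in 2, in a 3' UTR in 1 and in an intron in 1. Of the 8 regions held by all 4 libraries, the 5' UTR regions of Pabpc1 and Ybx1 lay on input peaks. Those of Eef1a1, Eef2, Eef1b2 and Eif2s2 and the 3' UTR regions of Pabpc1 and Ybx1 did not. The Eef2 and Eef1b2 regions are chains of peaks, with summits up to 875 and 783 nt apart, and not a site shared by all 4 libraries. In Eef2 the peaks of EB eCLIP-2 and embryo eCLIP-1 did not overlap, and in Eef1b2 those of the 2 EB libraries did not.

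Member summits lay mostly in exons, above all in coding exons. Of 128 eCLIP summits, 54 fell in coding exons (42.2%, 95% exact Clopper-Pearson interval 33.5 to 51.2%), 24 in 5' UTRs (18.8%, 12.4 to 26.6%), 23 in 3' UTRs (11.7 to 25.7%) and 27 in introns (21.1%, 14.4 to 29.2%). Among the other 5057 genic eCLIP summits, the shares were 39.7% in coding exons, 9.95% in 5' UTRs, 13.4% in 3' UTRs and 31.7% in introns. Per library, coding exons held 43.3% and 34.5% in embryos (mean 38.9% ± 6.26, SD, n = 2) and 44.8% and 45.0% in EBs (44.9% ± 0.122, SD, n = 2). Peaks of the same gene are not independent, and the intervals cover counting error only.

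Of the 15 member peaks in the inputs, 7 summits fell in 5' UTRs (46.7%, 95% exact interval 21.3 to 73.4%), 2 in coding exons (13.3%, 1.66 to 40.5%), 2 in 3' UTRs and 4 in introns. Input peaks of other genes were 83.4% intronic, with 5.59% in coding exons. An exon 1 of an annotated transcript was overlapped by 9 of the 15 input peaks, and by 28 of the 128 eCLIP peaks (21.9%), against 234 of 2506 input peaks (9.34%) and 811 of 5057 eCLIP peaks of other genes. MACS used a fragment size of 76 for EB eCLIP-2 but 200 for the other libraries, and with summits moved by 62 nt to allow for this the coding share of eCLIP summits was 52.3%. It was 29.0% among the 31 peaks with a score of at least 100.

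**Figure D4:**
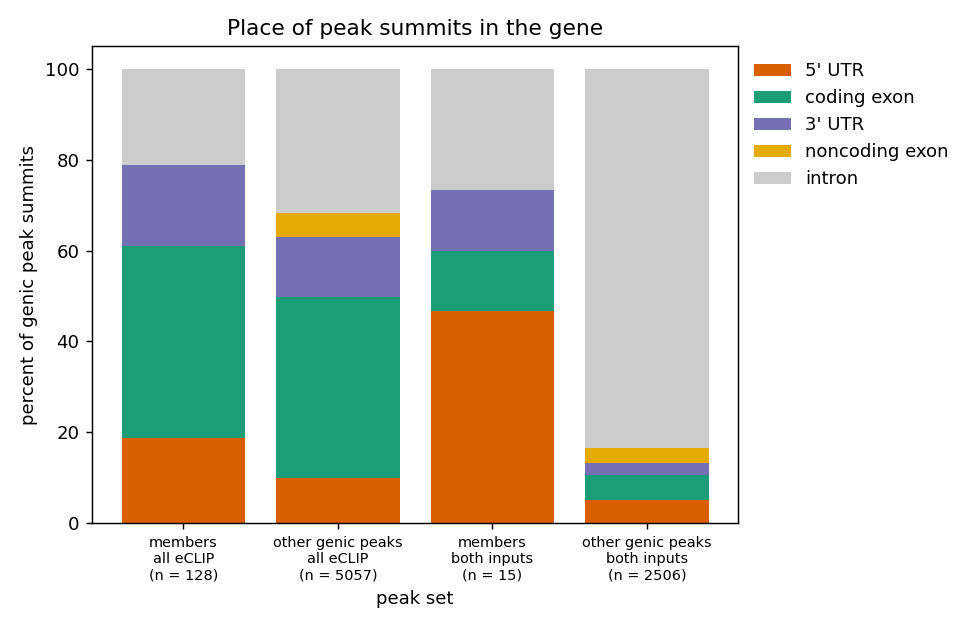
Percent of genic peak summits (vertical axis) in each part of the gene, for the eCLIP peaks of the members, the other genic eCLIP peaks, the input peaks of the members and the other genic input peaks. Members hold 42.2% of eCLIP summits in coding exons and 18.8% in 5' UTRs, and 7 of their 15 input summits lie in 5' UTRs.

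Of the 27 intronic member summits in eCLIP, 22 belonged to peaks that reached into an exon, and the median distance from the summit to the nearest exon was 35 nt. Another view is through snoRNA genes, which many translation factor genes carry in their introns. A snoRNA gene was overlapped by 13 eCLIP member peaks (10.2%, 95% exact interval 5.52 to 16.7%) in 8 members, and 6 of them had their summit inside it, in Eef1b2, Eif4a2, Pabpc4 and Tpt1. Other genic eCLIP peaks did so in 2.97%, and those of ribosomal protein genes in 28.4%. In the inputs, 3 of 15 member peaks overlapped a snoRNA gene, in Eif4a2 and Eif4g2, whereas 1.32% of other genic input peaks and 11 of 14 input peaks of ribosomal protein genes did.

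Near-identical copies bear on which gene a tag came from, and the study's methods give aligner settings that allowed a read more than 1 place but also describe the reads as mapped uniquely. Which of these holds for the tags was not tested. Of the 101 exonic eCLIP summits of members, 44 (43.6%) in 15 genes had another match in the genome at 90% identity or more over at least 100 of 200 nt. Eif3a, Eif3b, Eif3c, Eif3f, Eif4g1, Eif4g2, Eif4g3, Eif4h, Igf2bp1, Naca, Rack1 and Ybx3 had 0 such copies at any exonic summit. All exonic summits of Eef1a1, Ybx1, Eif5a and Eif4a1 had at least 1. So did those of Eif1, Eif3e, Eif4b, Pabpc4, Tpt1 and Nsa2, with 1 or 2 exonic summits each. The Nsa2 summit had 21 copies and the Eif1 summit 8. Outside the members, 16 peaks matched a member mRNA, of which 15 were in eCLIP libraries (2 in embryo eCLIP-1, and 5 and 8 in those of EBs). Pabpc1 accounted for 8 of them, among them a peak within the span of Luc7l that is 99.0% to 99.5% identical over 200 nt and held 5 tags in embryo eCLIP-1 and, in EBs, 11 and 17.

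The purine hexamers GAAGAA or GAAGAG or GAGGAA or GAGGAG, searched on the sense strand only in 200 nt around each summit and with overlaps allowed, were found in 35 of 54 coding eCLIP windows of members (64.8%, 95% exact interval 50.6 to 77.3%). The coding eCLIP windows of other genes held 1 in 56.9% (54.7 to 59.0%), so the intervals overlap. The member share was 9 of 13 and 7 of 10 windows in embryos and 8 of 13 and 11 of 18 in EBs. GCAGCA was found in 6 of the 101 exonic windows of members (5.94%, 2.21 to 12.5%), against 14.3% (13.1 to 15.6%) of those of other genes. Windows of a gene are often the same site in several libraries, and Ybx1 and Pabpc1 supply 11 and 9 of the 101. They are not independent, so the intervals of these shares cover counting error only, and no difference was tested. A run of at least 10 pyrimidines was found in 38.6% of exonic member windows and 34.1% of those of other genes. The median GC content was 52.5% in both.

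Of the 9 members with a peak in all 4 eCLIP libraries, 3 had both embryo libraries above both EB libraries (Eef1b2, Eef2 and Ybx1), whereas this was so for 60.6% of the 322 genes with a peak in all 4. Both embryo libraries were below both EB libraries in 2 (Pabpc1 and Eif2s2), whereas 8.39% of the 322 genes were. On the log2 scale, embryo over EB was -1.36 for Pabpc1, -1.06 for Eif2s2, 0.68 for Ybx1, 1.26 for Eef1b2 and 1.59 for Eef2, and the libraries overlapped for Eef1a1, Eif3a, Eif5b and Rack1. The median over the 9 members was 0.32, and over the 322 genes 0.65. An exact permutation test (two-sided) gives each of the 5 separated genes p = 0.333, which is the smallest it can give, so none can pass a threshold.

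**Figure D5:**
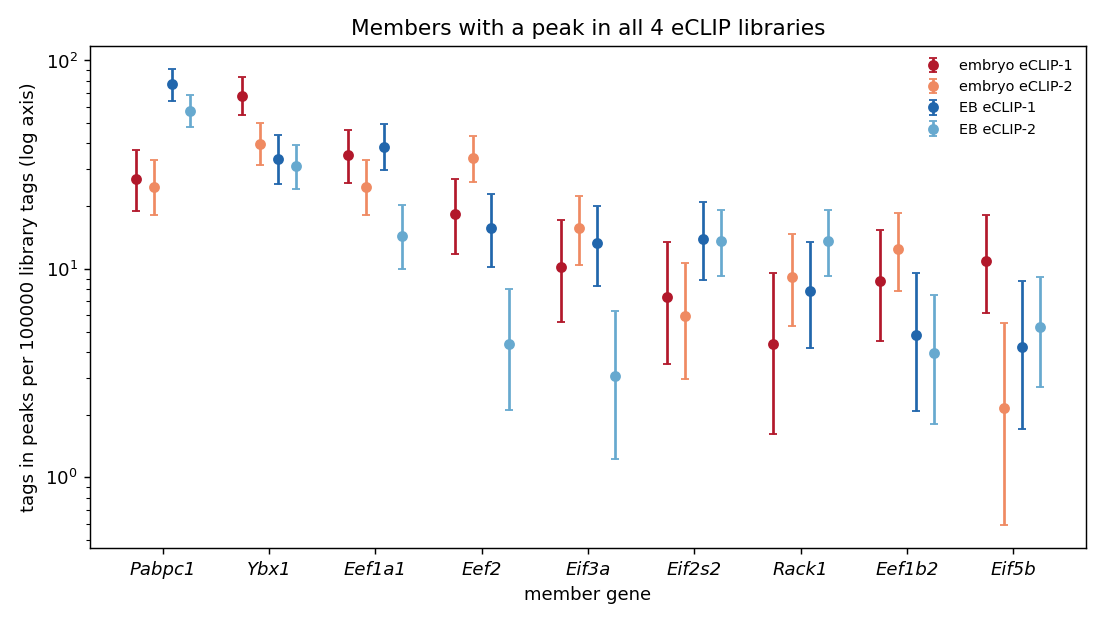
Tags in peaks per 100000 library tags (log axis) in each of the 4 eCLIP libraries for the 9 members with a peak in all 4, with exact Poisson 95% intervals that cover counting error only. The 2 EB points of Pabpc1 lie at 76.7 and 57.4, above the embryo points at 27.0 and 24.8.

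Presence of peaks by tissue gave 2 members with a peak in both embryo and neither EB eCLIP library, Eif4g3 and Igf2bp1, whereas 5.22% of the 2797 genes with an eCLIP peak had this pattern. The reverse held for 3 members, Eif3e, Eif4a2 and Pabpc4, against 8.87% of genes. Apart from the 45 tags of Eif4a2 in EB eCLIP-1, these members had 4 to 11 tags in the libraries with a peak, close to the lowest that were deposited.

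Where an eCLIP peak of a member overlapped an input peak of its tissue, its share of library tags was 6.34 to 94.99 times that of the input peak. The largest values were those of the Pabpc1 5' UTR in EBs (94.99 and 71.5, against 28.7 and 32.9 in embryos), and the Ybx1 5' UTR gave 51.5 and 28.2 in embryos and 46.0 and 23.0 in EBs. The member medians were 34.3 and 32.9 in embryos and 31.6 and 15.8 in EBs, whereas other genic peaks that overlapped an input peak had medians of 31.4 and 30.9 in embryos and 26.0 and 15.9 in EBs. These ratios of library shares rest on peaks called separately in each library, with 4 and 3 member peaks in embryos and 4 and 4 in EBs. The lowest deposited peaks stand at 1.31 to 2.19 tags per 100000 in eCLIP libraries and at 0.147 and 0.159 in the inputs. A ratio of 2 peaks at these floors is already above 1, so the ratios do not measure enrichment by the pull-down.

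A list of 93 further annotated genes of translation and mRNA binding gave shares below those of the members but above those of all genes. The members were chosen with earlier results known, so this is not an independent comparison. Peaks in both eCLIP libraries and none in the input were found in 8 of the 25 with an embryo peak (32.0%) and 9 of the 36 with an EB peak (25.0%). Over all genes with a peak in the tissue the shares were 15.9% and 18.6%. Caprin1, a stress granule protein with peaks in all 4 eCLIP libraries, had 22 and 37 tags in embryos and 6 and 6 in EBs, Eif3l 3 and 4 in embryos and 6 and 5 in EBs, and Paip2, an inhibitor of the poly(A)-binding protein, 8 and 5 in embryos and 5 and 4 in EBs, all without input peaks. Pcbp1, a poly(C)-binding protein, had 5 and 21 tags in embryos and 17 and 13 in EBs, with input peaks of 18 tags in embryos and 24 in EBs.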

How the data were processed

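The deposited lists hold peaks of 6 eCLIP and input libraries of mouse embryos and EBs. The authors trimmed reads with cutadapt, removed those matching repeats, mapped what was left to GRCm38 (STAR 2.5.2b) and ran MACS 1.4.2 on each library; per the file headers the p cutoff was 1e-05 and 0 control libraries were named, although the methods give an input control. The tags are a count of reads per peak, which the authors made after removal of duplicates and did not scale. The score, as deposited, is the p-value of a peak against its own library as a negative log10 times 10. The fold, as deposited, is a ratio to the background of the same library.

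Tags were scaled to 100000 library tags in Python 3.11.15 with pandas 2.3.3 and scipy 1.17.1. Summits (start plus summit offset minus 1) were placed in Gencode M21 genes, where a UTR took precedence over a coding exon, and any exon over an intron, among the basic transcripts; exon numbers and spliced positions are those of the principal transcript. All 10666 peaks on assembled chromosomes end inside them on GRCm38. Regions were merged at 1 bp of overlap. Ribosomal protein genes are the 82 protein-coding genes with Rpl or Rps symbols. Copies were searched with blastn 2.17.0+. Shares have 95% exact Clopper-Pearson intervals, and tissues were compared by exact permutation of the 4 eCLIP libraries. The steps were tested first on made-up peaks with known answers.

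Values in every library were given for members with a peak in at least 3 eCLIP libraries (the 14 with the most tags, the rest by range), for those with an input peak or a peak at an intronic snoRNA, and, from the further list, for genes with a peak in all 4 eCLIP libraries; 1 such gene is not reported here. The members and lists were chosen with earlier results of these data known. The study's text describes the embryo libraries as pools and the EB libraries as biological replicates; the labels give only a number. Alternatives were other minimums of fold, score and tags, other rules of placement, moved summits and leaving out libraries.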

Additional observations from a re-analysis of the deposited data

Results flagged for a closer look

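Eif4a2, an eIF4A helicase, is given for a closer look because it had input but no eCLIP peaks in embryos, and the reverse in EBs. Its peaks held 0 tags in embryo eCLIP-1 and 0 in embryo eCLIP-2, against 55 in the embryo input. They held 45 and 8 in the EB eCLIP libraries, against 0 in the EB input. The 55 input tags are 0.874 per 100000 library tags, below the lowest deposited embryo eCLIP peaks (2.19 and 2.16). The embryo eCLIP absence therefore cannot show less signal than in the input. The difference between tissues was not tested. Each of these peaks overlapped a snoRNA gene in the introns of Eif4a2.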

How the results depend on the processing

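Of 52 alternatives to 5 results, 42 kept the direction or stayed within the tolerance, 6 moved and 4 reversed. Of the 42, 4 were counts of members with a replicate left out, where the rule itself changes. The replicate block and the crossed pairing keep the main ratio by construction. The over 5-fold setting removed almost no peaks (1445 of 1449 stayed in embryo eCLIP-1) and changed none of the 5 results. The tolerance for counts also passed 15 against 10. The 42 are therefore not a measure of stability. Of the 52, 2 were chosen after seeing the data, the coding exon first in the class order and the crossed pairing. At a score of at least 100, the members with peaks in the eCLIP pair but without an input peak fell to 2 in embryos, against 10, and 2 in EBs, against 13, the member regions free of input peaks to 7, against 22, and the coding share to 29.0%, against 42.2%. The coding share was 53.5% with summits required in an exon, which leaves out the intronic summits from the total, and 52.3% with summits moved for fragment size; the cause was not tested. Leaving out a replicate leaves 1 eCLIP library in a tissue, so the rule needs a peak in that library only and the count cannot fall: it was 13 to 15 members in embryos and 14 to 18 in EBs, which says nothing about stability. It gave a coding share of 40.6% to 44.1% and 15 to 19 regions. The log2 ratio of embryo over EB tags was 0.13 and had no settled sign: it was -0.24 per 100000 tags in all peaks (exact permutation p = 0.333), -0.12 at a score of at least 100, and -0.12 to 0.38 when replicates were left out, with -0.12 without EB eCLIP-2 and -0.01 without replicate 2 of both tissues. With the replicate number as a block, the ratio was 0.13 (exact sign-flip p = 1.0), and deviations of same-numbered libraries correlated at -0.32 over only 9 members, so a pairing was not shown; the crossed pairing called 0 results, and with 2 pairs neither sign-flip test can pass a threshold. Depth limits all of this, since the lowest eCLIP peaks have 3 or 4 tags.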
